A study of Danio rerio with 15 samples.

Results

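The level of ovary transcripts divided 9 pieces of adult zebrafish skin into 6 with a high level and 3 with a low level. The sets were chosen by the mean measured value of 3 oocyte genes, buc, zar1 and btg4. Arrays above 3 on the log2 scale were placed in the set with ovary transcripts, and the others in the set without. The name of the set without refers to this limit and does not mean that such transcripts were absent. Mutant skin 1, 2, 4 and 6 and WT skin 1 and 2 fell into the first set. Mutant skin 3 and 5 and WT skin 3 fell into the second. These 9 skin arrays came from a series of 15, whose other 6 arrays were melanomas. Because the sets were formed from values of the same arrays, differences between them are described here without a test.

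The series measured total RNA of zebrafish (Danio rerio) on Affymetrix arrays, in which each gene is read by 1 or more probe sets. Mutant skin (n = 6) and melanoma (n = 6) came from fish of the genotype mitf-BRAFV600E;p53-/-, and WT skin (n = 3) came from Tu fish. In the mutant line the mitf promoter, which is active in the pigment cell lineage, drives human BRAF with the V600E change, and p53 is lost in every cell. The fish were aged 4 to 8 months according to the labels, mutant skin was taken from beside a visible melanoma, and WT skin was the skin along the length of the flank. The labels give no sex and do not say whether any 2 pieces came from the same fish. The p-values below therefore measure only the spread between these arrays.

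The zebrafish ovary lies in the body cavity behind the flank and holds oocytes at every stage of growth. A growing oocyte stores messenger RNA for use after fertilisation, makes zona pellucida proteins for the egg coat, and carries germ granules, in which piwi proteins and their small RNAs silence transposons. The yolk precursor vitellogenin is made by the liver and taken up by the oocyte from blood. Of the 3 genes used for the division, buc organises the Balbiani body of the early oocyte, zar1 binds stored maternal RNA, and btg4 acts in the removal of maternal RNA around meiotic maturation.

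The mean of the 3 genes was 8.73 in mutant skin 6, 8.45 in mutant skin 2 and 8.22 in WT skin 1. It was 6.36 in mutant skin 1, 5.76 in WT skin 2 and 4.82 in mutant skin 4. It was 1.05 in mutant skin 5, 0.88 in WT skin 3 and -0.46 in mutant skin 3. The values just inside and just outside the limit were those of mutant skin 4 and mutant skin 5. The first 3 arrays lay close together and the next 3 stepped down from them, so the 6 arrays with ovary transcripts did not form a single level. For buc the lowest, median and highest values were 4.50, 7.04 and 8.24 with and -0.64, 0.47 and 1.23 without. The corresponding values of btg4 were 5.47, 7.80 and 9.37 with and -0.28, 0.08 and 2.05 without. All values are log2 levels relative to an unstated reference for each probe set, so they compare arrays and not genes. The melanomas, which played no part in the division, stood at -1.23 to -0.63 in melanoma 1 to 5 and at 8.35 in melanoma 6.

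Both sets held mutant and WT skin in the ratio 2 to 1. The marker level was 4.83 ± 3.82 (SD, n = 6) in mutant skin and 4.96 ± 3.74 (SD, n = 3) in WT skin, a difference of -0.13 (two-sided exact permutation test over 84 arrangements, p = 0.976, adjusted over 2 comparisons 0.976). In melanoma it was 0.618 ± 3.79 (SD, n = 6), 4.21 below mutant skin in the mean, which also missed the threshold (difference -4.21, two-sided exact permutation test, p = 0.0801, adjusted 0.160, smallest possible p 0.00216). Of the 6 melanomas, 5 were lower than every mutant skin piece, and melanoma 6 lay within the range of mutant skin. Without melanoma 6 the difference from mutant skin was -5.76 (exact permutation p = 0.00433, adjusted 0.00866), and without mutant skin 3 it was -5.27 (exact permutation p = 0.0476, adjusted 0.0952). Melanoma 6 stood apart by this same level, and the other 5 were already below every mutant skin piece. The p-value without it is therefore no independent result.

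The arrays also differed in technical readings. The bacterial spike-in controls averaged -4.55 in mutant skin 2, -1.21 in mutant skin 6 and -0.99 in WT skin 1, and 0.13 to 0.57 in the other 6 skin arrays. The SD over all features was 1.73, 1.65 and 1.51 in mutant skin 6, mutant skin 2 and WT skin 1, and 1.02 to 1.22 in the others. These were the 3 arrays with the highest ovary marker levels. The actin control, whose 3′ minus 5′ signal reads RNA integrity, ran from -2.85 to 3.47 with ovary transcripts and from -3.24 to -1.82 without; the GAPDH control ran from -0.36 to 0.54 and from -0.23 to -0.09. The part of these readings in the differences below was not tested. As a check of the tissue label, 47 measured epidermis genes had a mean level of -2.39 to 1.06 in the 9 skin arrays and -3.52 to -1.51 in melanoma. The muscle list lay at -2.16 to 1.12 in skin and -6.39 to -4.78 in melanoma 1 to 5. The check did not part every array: mutant skin 2 had the epidermis level of -2.39, within the melanoma range. Melanoma 6 had a muscle level of -1.62, within the skin range. A list level is each member's value less its mean over the 9 skin arrays, averaged over the list.

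Of 8790 genes besides the 3 markers, 509 (5.79%) were at least 2-fold higher in the mean of the arrays with ovary transcripts and did not overlap between the sets, and 163 (1.85%) were at least 2-fold lower without overlap. The higher genes reached far: 354 differed by at least 4-fold, 136 by at least 16-fold and 43 by at least 64-fold, and the largest difference was 8.27 on the log2 scale. The lower genes did not: 19 reached 4-fold, 0 reached 8-fold, and the lowest difference was -2.88. In 499 of the 509 genes the highest 3 arrays were mutant skin 6, mutant skin 2 and WT skin 1, in any order. The same 3 were highest in 2235 of all 8793 genes. The calling rule allows no overlap, so the highest 3 arrays of a called gene always belong to the set with ovary transcripts. The 2 counts are therefore not directly comparable. The set accounted for 35.1% of the sum of squares over genes in the 9 arrays, the 3 markers included, and the label for 10.23%. The set was formed from values of these arrays and the label was not, so the 2 shares cannot be ranked against each other. Over all 13497 features, unnamed probe sets included, 640 (4.74%) were higher and 306 (2.27%) lower.

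Scaling moved the count of lower genes more than that of higher genes. The median difference over all genes was -0.24 as deposited, -0.02 with each array centred on its median, -0.04 after quantile normalization and 1.15 after scaling to the spike-in controls. The counts of higher and lower genes were 536 and 80 with centring, 521 and 139 with quantile normalization and 676 and 0 with spike-in scaling. Mutant skin 2 weighs most in the spike-in scaling, with controls at -4.55 against -1.21 to 0.36 in the rest of its set. The higher genes thus made up 75.7% of calls as deposited, 87.0%, 78.9% and 100%. Mutant skin 4 had the weakest ovary signal of its set, and without it the counts were 812 and 474.

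The egg coat genes, which encode zona pellucida proteins, had the highest share of called members among the 22 lists. Of 14 measured genes 12 (85.7%) were called higher and 0 lower, beside 5.79% and 1.85% of all genes. The median difference was 5.80, against -0.24 for all genes. The egg coat gene zp3b lay at 4.33, 7.65 and 8.83 (lowest, median and highest) with and at -0.91, 0.52 and 1.58 without, a 113-fold difference in means (7.22 ± 1.73, SD, n = 6, against 0.40 ± 1.25, SD, n = 3). For zp3f.1 the values were 5.90, 8.19 and 10.04 with and -0.60, 0.95 and 3.49 without. For zp2l1 they were 4.35, 7.56 and 9.10 with and -0.42, 1.27 and 1.58 without. The sets stayed apart for each of these 3 genes, although members of this family are near copies whose probes can read more than 1 gene. All 14 genes were above the 3 arrays without ovary transcripts in mutant skin 2, 4 and 6 and WT skin 1, and 13 were in mutant skin 1 and WT skin 2. The set without was not empty of them: zp2.6, named after its values were seen, stood at 3.75 in mutant skin 5, 2.41 in WT skin 3 and -2.01 in mutant skin 3.

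Genes that load the oocyte with maternal RNA and proteins behaved alike. Of 30 measured maternal genes besides zar1 and btg4, 24 (80%) were called higher and 0 lower, beside 5.79% and 1.85% of all genes. The median difference of these 30 was 5.66. The translation regulator cpeb1b, which binds the tails of stored oocyte messages, stood at 4.57, 7.59 and 9.29 with and at -0.73, -0.61 and -0.30 without (235-fold). The pluripotency factor nanog, a maternal activator of the embryonic genome in zebrafish, stood at 4.58, 7.56 and 8.84 with and at -0.57, 0.25 and 0.73 without (128-fold). In both genes mutant skin 4 was the lowest array with ovary transcripts and still stood far above the set without. The histone-message binding protein gene slbp2 was 126-fold higher, the oocyte claudin gene cldnd 126-fold and the nuclear import gene kpna7 124-fold. Nearly all members were above the set without in each piece: 30 of 30 in mutant skin 2 and 6 and WT skin 1, 28 in mutant skin 1, 29 in WT skin 2 and 24 in mutant skin 4. Of all genes, 38.1% were above the set without in mutant skin 6, 36% in mutant skin 2, 31.6% in WT skin 1, 18.9% in mutant skin 1, 15.5% in WT skin 2 and 26.3% in mutant skin 4.

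The largest differences of all belonged mostly to genes that carry only a clone name. The 15 genes with the largest difference included zgc:171776 (8.27), zgc:171474 (8.17), zgc:173770 (7.51), zgc:111868 (7.44) and zgc:173837 (7.38), and also zpax4 (6.98). For zgc:171776 the lowest, median and highest values were 6.55, 8.47 and 10.01 with and -1.20, -0.86 and 1.82 without. For zgc:173770 they were 6.66, 9.12 and 10.75 with and -0.73, 0.47 and 4.47 without, the highest value without being that of mutant skin 5. Only 74 of the 509 higher genes were in any of the 22 gene lists used here.

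**Figure D1:**
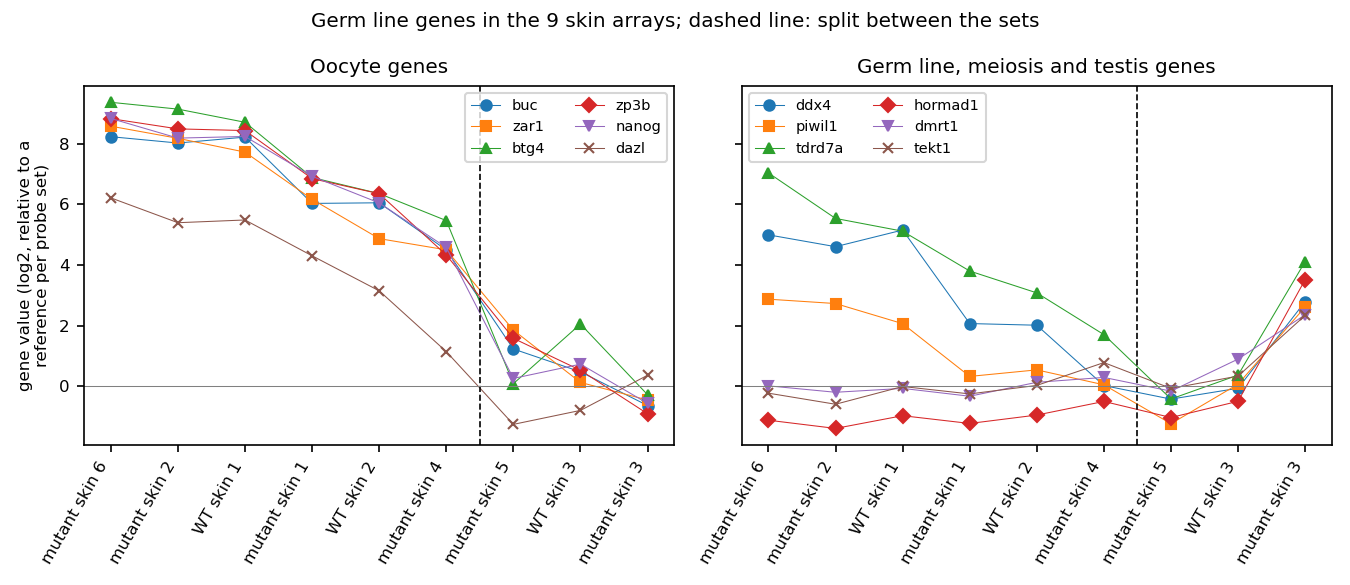
Log2 values of 12 genes (y axis, relative to a reference per probe set) in the 9 skin arrays, ordered along the x axis by falling ovary marker level, with a dashed line between the sets. The oocyte genes at left step down to the line and stay low after it, whereas ddx4, piwil1 and tdrd7a at right are high again in mutant skin 3, where hormad1, dmrt1 and tekt1 also stand above the other arrays.

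Germ granule genes separated the sets less fully, and most of the overlap came from mutant skin 3. Of 15 measured genes besides buc, 7 (46.7%) were called higher and 0 lower, beside 5.79% and 1.85% of all genes. The median difference of these 15 was 2.42. Without mutant skin 3 the count was 12 of 15 (8.29% of all genes were then higher). The germ cell RNA-binding gene nanos3 stood at 2.86, 5.19 and 7.50 with and at -0.15, 0.06 and 0.22 without, and dazl, a translation activator of germ cells, at 1.14, 4.85 and 6.22 with and at -1.26, -0.80 and 0.36 without. The piRNA pathway genes gtsf1 and asz1 were 50.5-fold and 31.6-fold higher. These 4 genes did not overlap between the sets.

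Other germ granule genes were high in mutant skin 3 although its oocyte markers were the lowest of the 9; they are named here after their values were seen. The germ cell helicase gene ddx4 (vasa) was 2.79 in mutant skin 3, -0.07 in WT skin 3 and -0.43 in mutant skin 5. In the set with ovary transcripts it ranged from 0.02 in mutant skin 4 to 5.16 in WT skin 1. The piwi gene piwil1 was 2.62 in mutant skin 3 and -1.24 and 0.06 in the other 2 arrays without, and tdrd7a, a germ granule tudor protein gene, was 4.12 against -0.43 and 0.36. In this array ddx4, piwil1 and tdrd7a therefore lay inside the range of the arrays with ovary transcripts.

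Mutant skin 3 was also high in some genes of the testis and meiosis lists. It was the highest of the 9 arrays for 8 of 15 testis and sperm genes, beside 12.6% of all genes. It was the highest for 4 of 10 meiosis genes, as was mutant skin 2, and its meiosis list level, 0.27, lay below those of mutant skin 6 (0.91), mutant skin 2 (0.74) and WT skin 1 (0.58). The gonadal sex gene dmrt1 was 2.36 in mutant skin 3 and -0.33 to 0.89 in the other 8 skin arrays. The meiotic chromosome axis gene hormad1 was 3.52 there and -1.40 to -0.50 elsewhere. From the testis and sperm list, tekt1 and rsph9 were 2.34 and 2.93 there and at most 0.78 and 1.05 elsewhere. Neither list gave more than 1 call between the 2 sets. Of 15 testis genes 0 were called in either direction, with a median difference of -0.42. Of 10 meiosis genes 1 was called higher. It was ccna1, the germ line cyclin, at 3.44, 6.37 and 7.50 with and -1.18, 1.65 and 2.19 without. Beside 5.79% of all genes called higher and 1.85% lower, these counts are no result about either list. The mean level of the testis list was 0.81 in mutant skin 3 and -0.37 to 0.18 in the other 8.

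Listed genes of the somatic follicle cells gave no call between the sets. Of 22 genes for follicle cells and steroid synthesis, 0 were called in either direction, beside 5.79% of all genes called higher and 1.85% lower. With shares this small, a count of 0 says little about the list. The median difference was -0.34, against -0.24 for all genes. The aromatase gene cyp19a1a and the follicle-stimulating hormone receptor gene fshr, named after their values were seen, differed by -0.23 and -0.06. The 2 with the largest upward difference were steroid enzymes. For hsd3b2 mutant skin 6, mutant skin 2 and WT skin 1 stood at 4.38, 3.63 and 3.09, mutant skin 1 at 1.31, and the remaining 5 arrays at -0.38 to 0.12. For cyp17a1 the first 3 stood at 3.07, 3.40 and 4.18, and the other 6 at -0.67 to 1.43. Both genes overlapped between the sets, and mutant skin 4 was no higher than the highest array without. The activin subunit gene inhbb and the activin antagonist gene fsta differed the other way, by -1.79 and -1.36, also with overlap. A further steroid enzyme gene, cyp11a1.1, is not on the list and was named after its values were seen. It was 26.9-fold higher with ovary transcripts, without overlap.

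Cell cycle genes gave the largest count of called members of any list. Of 82 measured genes 29 (35.4%) were called higher and 0 lower, beside 5.79% and 1.85% of all genes. As a share this was below the egg coat list (85.7%), the maternal list (80%) and the germ granule list (46.7%). The median difference was 2.204, and 80 genes had a difference above 0. The mitotic cyclin genes ccnb1 and ccnb2, whose messages are also stored in oocytes, were 38.4-fold and 71.7-fold higher. For ccnb2 the lowest, median and highest values were 2.48, 5.92 and 7.28 with and -1.82, -0.57 and 0.21 without. The replication licensing gene cdt1 stood at 0.63, 4.00 and 6.05 with and at -2.23, -1.67 and -0.94 without, and the chromosomal passenger gene cdca8 at -1.94, 1.86 and 3.21 with and at -4.26, -3.66 and -2.95 without. The number of members above the set without followed the order of the ovary markers more steeply than for the maternal genes: 79 in mutant skin 6, 80 in mutant skin 2, 79 in WT skin 1, 70 in mutant skin 1, 52 in WT skin 2 and 32 in mutant skin 4, the last being 39.0% of the list beside 26.3% of all genes. In mutant skin 2 it was 97.6% beside 36%. The list level was 2.23, 2.00 and 1.69 in the first 3 arrays, 0.33 in mutant skin 1, -0.35 in WT skin 2, -1.16 in mutant skin 4 and -1.89 to -1.23 in the set without. In melanoma 1 to 5 it was -0.10 to 0.85, above every array without ovary transcripts. Without mutant skin 4 the count was 50 of 82, when 9.24% of all genes were higher, and without mutant skin 3 it was 47, when 8.29% were.

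**Figure D2:**
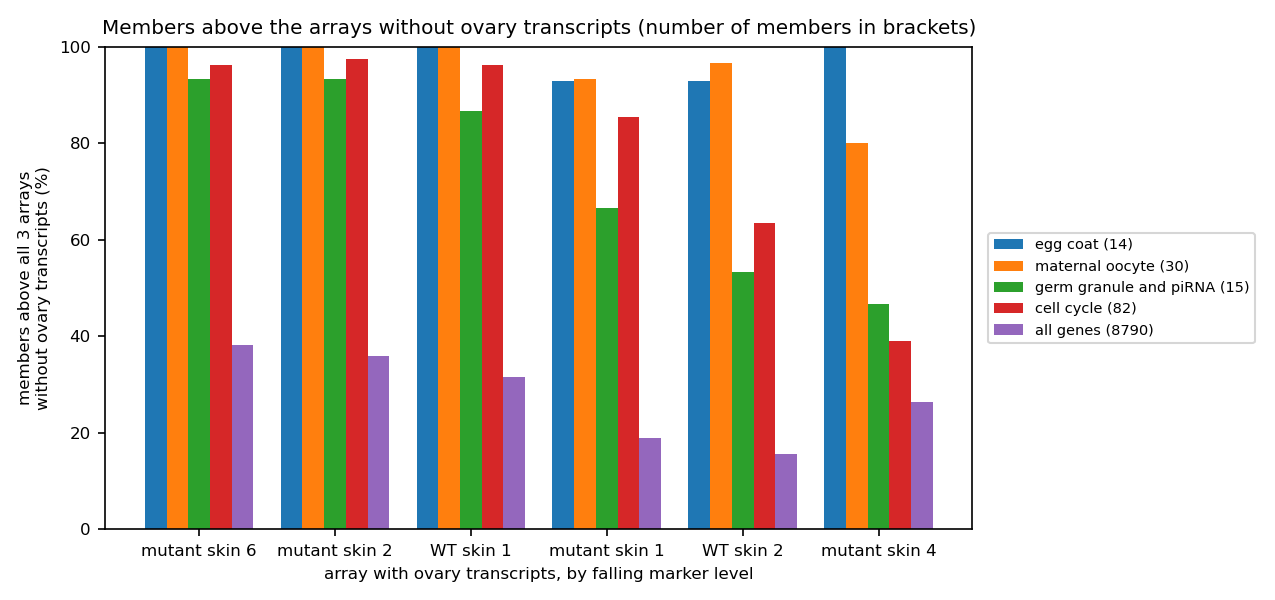
Share of the members of 4 gene lists, and of all genes, whose value exceeds all 3 arrays without ovary transcripts (y axis, percent) in each of the 6 arrays with them (x axis, by falling marker level); the markers themselves are left out. Egg coat and maternal oocyte genes stay at 80% or more in every array, whereas cell cycle genes run from 97.6% in mutant skin 2 to 39.0% in mutant skin 4.

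Lists of other abdominal organs did not separate the 2 sets as the ovary genes did. Of 36 genes for yolk precursors and other liver products, 0 were called, beside 5.79% of all genes higher and 1.85% lower. These shares are small, so the count of 0 says little by itself. The median difference was 0.41, against -0.24 for all genes. The vitellogenin gene vtg2 was 10.32 in mutant skin 4, 9.72 in mutant skin 6 and 6.67 in WT skin 2. It was 2.28 in mutant skin 5 and -1.82 to -0.23 in the other 5 skin arrays, among them mutant skin 2 and WT skin 1, which had 2 of the 3 highest ovary marker levels. Mutant skin 4 had the least ovary signal of its set. It was highest of the 9 arrays for 27 of 36 liver genes and 16 of 18 exocrine pancreas genes, beside 13% of all genes.

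The pancreas genes marked a different pair of pieces. Of the 18 genes, 15 were above the set without in mutant skin 1 and 18 in mutant skin 4, but 1 or 2 in each of the other 4 arrays with ovary transcripts. The shares of all genes there were 18.9% in mutant skin 1, 26.3% in mutant skin 4 and 15.5% to 38.1% in the other 4. The bile salt lipase gene cel.1 was 5.83 in mutant skin 1, 5.37 in mutant skin 4 and -0.30 to 1.18 in the other 7. The chymotrypsin gene ctrb.1, named after its values were seen, was 8.18 in mutant skin 4, 6.91 in mutant skin 1 and 4.21 in mutant skin 5, a piece without ovary transcripts. Of the pancreas genes 1 was called higher, the amylase gene amy2al1 (3.06-fold). Of 19 intestine genes 1 was called higher and 1 lower, the endocytic adaptor gene dab2 (13.0-fold higher) and the brush border protease gene mep1a.1. Beside 5.79% and 1.85% of all genes, these few calls are no result about the pancreas or intestine list.

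The 163 lower genes held few members of any list: 9 of them were in one. By list the counts of lower genes were 2 of 33 for dermis, scale and matrix, 2 of 42 for the proteasome, and 1 each of 47 epidermis, 37 skeletal muscle, 8 endothelium, 19 intestine and 85 oxidative phosphorylation genes. None of the mucous cell and ionocyte, pigment cell, leukocyte, erythrocyte, neural and ribosomal protein genes was called lower. These shares were 1.18% to 6.06%, and 12.5% for the 8 endothelium genes, beside 1.85% of all genes. The list medians were nevertheless low, at -1.30 for dermis, scale and matrix, -1.17 for mucous cells and ionocytes, -1.14 for epidermis, -1.10 for leukocytes, -1.07 for endothelium, -0.98 for oxidative phosphorylation and -0.96 for skeletal muscle, against -0.24 for all genes. All of these medians were above 0 with spike-in scaling, in which mutant skin 2 weighs most. Under it 22 of 22 list medians were above 0, against 7 as deposited. In bulk tissue, fewer cells of a type and less RNA per cell cannot be told apart.

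The genes with the largest downward differences had varied roles. The cytochrome oxidase subunit gene cox4i1l stood at -2.79, -0.08 and 1.85 with and at 2.11, 2.91 and 2.92 without (7.37-fold lower). The forkhead gene foxc1b, active in mesenchyme, stood at -2.61, 0.28 and 1.73 with and at 2.24, 2.50 and 4.03 without (7.35-fold lower). The fibrillar collagen gene col11a1a was flat in the set with ovary transcripts, at -1.03 to 0.27, and stood at 1.27, 2.53 and 4.12 in the set without (7.29-fold lower). Its spread was thus in the 3 arrays without, where mutant skin 3 was highest. The retinoic acid synthesis gene aldh1a2 was 6.53-fold lower, the semaphorin gene sema4e 5.33-fold, the acute phase gene saa 5.197-fold, the growth factor receptor gene fgfr3 4.85-fold and the prostaglandin synthase gene ptgs2a 4.52-fold. The homeobox genes hoxb3a and hoxd10a were 4.45-fold and 4.44-fold lower.

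The barrier gene cldn1 touched the limit between the sets: 3.03 was its highest value with ovary transcripts and 3.04 its lowest without. Its low mean came from mutant skin 2 (-1.99) and mutant skin 6 (0.07). In the muscle actin gene acta1a the set without was tight, at 2.57 to 2.66, and the set with ran from -0.71 to 2.41. The endothelial receptor gene tie1 stood at -1.52, 0.15 and 1.45 with and at 1.56, 1.58 and 2.58 without. Mutant skin 2 and 6 were the 2 lowest arrays for 82 of the 163 genes, and these are 2 of the 3 arrays with low spike-in controls. The calling rule allows no overlap, so the 2 lowest arrays of these genes always belong to the set with ovary transcripts. Over all 8790 genes mutant skin 2 was the single lowest array for 2819 and mutant skin 6 for 897. Whether the low controls had a part in the count of 82 was not tested. After spike-in scaling 76 of the 163 genes were still below 0, with a median of 0.04 against -1.35 as deposited, and foxc1b, col11a1a and aldh1a2 were among those still below 0.

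By piece the lower lists were uneven. Of 85 oxidative phosphorylation genes, 81 were below all 3 arrays without ovary transcripts in mutant skin 1, 79 in mutant skin 2, 77 in mutant skin 6, 66 in WT skin 1 and 44 in mutant skin 4. WT skin 2 had 11. Of all genes, 46.6% were below in mutant skin 1, 48.8% in mutant skin 2, 45.5% in mutant skin 6, 39% in WT skin 1, 19.8% in mutant skin 4 and 27.6% in WT skin 2. For epidermis the counts of 47 were 42 in mutant skin 2, 39 in mutant skin 6, 35 in WT skin 1, 24 in mutant skin 1, 6 in WT skin 2 and 5 in mutant skin 4. Skeletal muscle gave 36 of 37 in mutant skin 6, 35 in mutant skin 2, 20 in mutant skin 1, 17 in WT skin 1, 6 in WT skin 2 and 3 in mutant skin 4. Without mutant skin 1 and 4 and WT skin 2, the 3 pieces of the set with lower marker levels, the count of lower epidermis genes was 34 of 47, when 20.8% of all genes were lower.

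**Figure D3:**
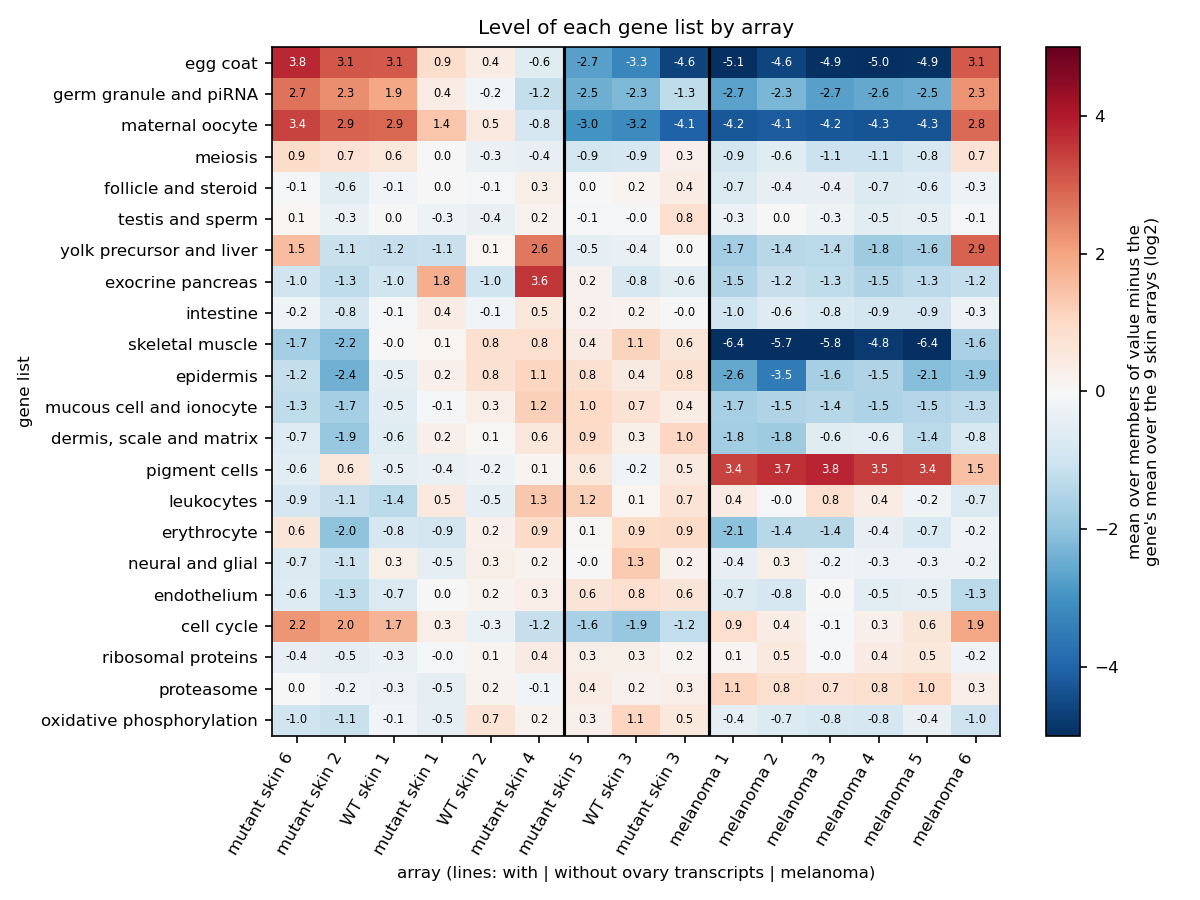
Level of each of the 22 gene lists (rows) in the 9 skin and 6 melanoma arrays (columns), as each member's log2 value less its mean over the 9 skin arrays, averaged over the list; lines part the arrays with ovary transcripts, those without and melanoma. Egg coat, maternal and germ granule lists are high in most arrays at left and in melanoma 6 (3.06, 2.82 and 2.26). In mutant skin 4 they stand at -0.60, -0.83 and -1.18, and in WT skin 2 the germ granule list is at -0.16. The liver list is high in mutant skin 4 and 6 and melanoma 6, and the pancreas list in mutant skin 1 and 4.

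Melanoma 6 took no part in the division, but it was singled out among the melanomas by its level of the same 3 markers. Genes that follow these markers would be high in it for that reason, so the counts below are no independent support. Of the 509 genes higher with ovary transcripts, 438 (86.1%) were above all of melanoma 1 to 5 in melanoma 6 by at least 2-fold in the mean, against 18.9% of all genes, and the median difference was 2.93. Of the 163 lower genes, 84 (51.5%) were below melanoma 1 to 5 by the same rule, against 20% of all genes. The median difference was -1.18 in these 163 genes and -0.16 over all genes. With 1 array on one side there is no test. Every one of the 14 egg coat genes, all 32 maternal genes and 15 of 16 germ granule genes were higher in melanoma 6, with medians of 8.25, 8.04 and 4.75. These counts and medians include the markers zar1 and btg4 in the maternal list and buc in the germ granule list. The marker level itself was 8.35 in melanoma 6. The liver list was higher in 31 of 36 genes, with vtg2 at 11.21, and 1 of 18 pancreas genes was.

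Cell cycle genes were also higher in melanoma 6 in 44 of 82 cases, lower in 2, with a median difference of 1.17. Skeletal muscle genes, low in mutant skin 2 and 6, were higher in melanoma 6 than in the other melanomas in 32 of 37 cases, with a median of 4.04. Melanoma 6 had pigment cell genes at a level of 1.46, between skin (-0.56 to 0.57) and the other melanomas (3.38 to 3.82). Its spike-in controls averaged -0.12, within the range of melanoma 1 to 5 (-0.20 to 0.58).

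**Figure D4:**
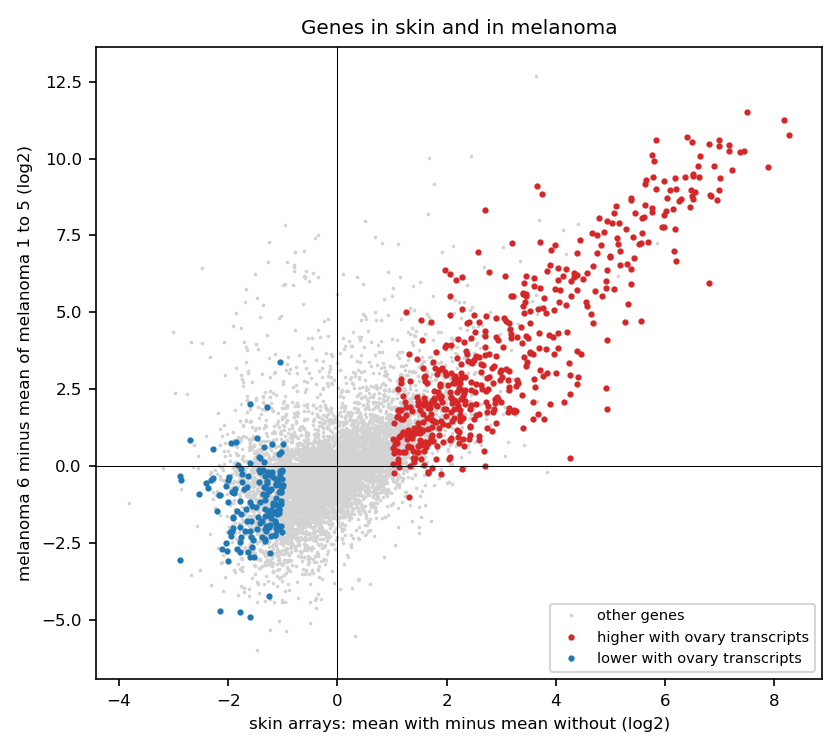
Each point is 1 of 8790 genes, by the mean difference of the skin arrays with and without ovary transcripts (x axis, log2) and by melanoma 6 minus the mean of melanoma 1 to 5 (y axis, log2). The 509 higher genes (red) have a median of 2.93 on the y axis and the 163 lower genes (blue) a median of -1.18.

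Comparing mutant with WT skin asks how the ovary transcripts stand beside a comparison by label. The label joins genotype with site, since mutant skin lay beside a visible melanoma. It also joins them with any difference in strain, since WT skin came from Tu fish and the labels name no strain for the mutant line. Genotype, site and strain cannot be told apart. In limma over 13500 features (8793 genes and 4707 probe sets without a single gene symbol), 11 (0.0815%) passed an adjusted p of 0.05, 3 higher and 8 lower in mutant skin, and 772 had an unadjusted p below 0.05. With the ovary set as a term, 15 (0.111%) passed, 3 higher and 12 lower, and the median standard error over features went from 0.47 to 0.43. The 7 genes named below differed between the sets by -0.57 to 0.07 in the mean. The interaction of label and set rests on 1 WT array without ovary transcripts. Its median standard error was 0.97, against 0.47 for the label, so it cannot show whether label and set interact.

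The genes that passed included major histocompatibility genes. The class 1 gene mhc1ufa was 7.64, 8.71 and 8.77 in WT skin 1 to 3 and -0.88 to 0.35 in mutant skin, a difference of -8.66 ± 0.39 (SE, limma adjusted p = 1.57e-05, and 2.87e-05 with the set as a term). It was the only gene named here that passed within the arrays with ovary transcripts (limma adjusted p = 0.0014) and within those without (0.018); the latter sets 1 WT array against 2 mutant arrays, and the lone array is assumed to vary like the other groups. A second class 1 gene, mhc1uda, was 1.70, 3.32 and 3.60 in WT skin and -1.01 to 0.23 in mutant skin, and passed with the set as a term (difference -3.19 ± 0.44, SE, limma adjusted p = 0.0414). The class 2 gene mhc2daa went the other way, at -4.54, -5.03 and -4.30 in WT skin and -1.28 to 3.01 in mutant skin (5.94 ± 0.80, SE, limma adjusted p = 0.0353). In all 3 genes mutant and WT skin did not overlap, and the ovary sets did.

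Among the genes lower in mutant skin, 2 serve the release of synaptic vesicles. The membrane fusion gene snap25a was 3.82, 3.17 and 5.103 in WT skin 1 to 3 and -0.74 to 0.35 in mutant skin (difference -4.31 ± 0.45, SE, limma adjusted p = 0.00858). The complexin gene cplx2a was 1.35, 1.86 and 3.51 in WT skin and -2.41 to -1.27 in mutant skin (-4.21 ± 0.48, SE, limma adjusted p = 0.0154). The level of the 22 neural and glial genes was 0.31, 0.30 and 1.32 in WT skin 1 to 3 and -1.09 to 0.20 in mutant skin; its part in these 2 results was not tested. The intramembrane protease gene sppl2 was lower in mutant skin (-3.83 ± 0.40, SE, limma adjusted p = 0.00858) and the coat protein gene copb2, of vesicle traffic in the Golgi, was higher (2.36 ± 0.30, SE, limma adjusted p = 0.0255). No gene of the egg coat, maternal oocyte or germ granule lists was among the features that passed by label, beside 0.0815% of all features. Both sets held mutant and WT skin in the ratio 2 to 1, so a difference between the sets alone gave none by label. The standard error by label was also wide in such genes (2.41 in zp3b), so their absence is no result about them.

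**Figure D5:**
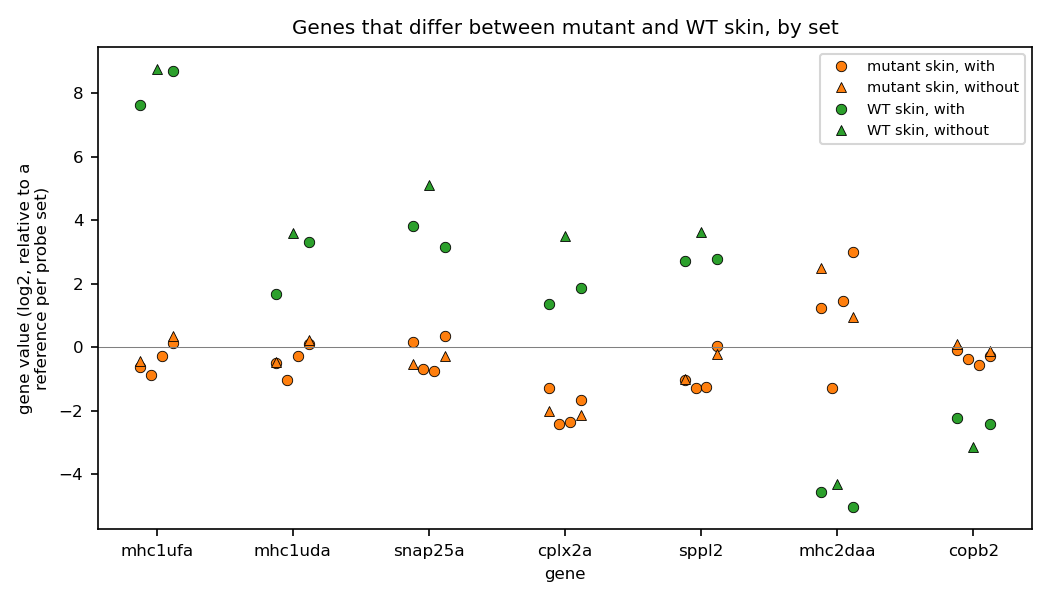
Log2 values (y axis, relative to a reference per probe set) of 7 genes that passed in limma between mutant (orange) and WT skin (green) with the ovary set as a term; circles are arrays with ovary transcripts and triangles those without. The colours separate in all 7 genes. In mhc1ufa WT skin stands at 7.64 to 8.77. The WT triangle lies outside the pair of WT circles in all 7 genes, though narrowly in mhc1ufa (8.77 against 8.71).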

How the data were processed

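Total RNA of 6 mutant skin, 6 melanoma and 3 WT skin pieces was measured on 1-colour zebrafish arrays. The deposited log2 values were made by the authors with GCRMA, a background correction and normalization for these arrays, per the submitters' processing notes, which give no version. The values are relative to a reference per probe set that the sources used here do not state, with a floor at -6.64 (log2 of 0.01) reached by 86 values in 36 probe sets, none of them in a gene called between the sets. Scanner files were not analysed here, so signal over background is unknown, and precision is limited by how many arrays there are.

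Of 15617 probe sets, 115 controls were left out. Of the other 15502, 10795 had 1 gene symbol in the platform annotation, 135 several and 4572 none, and 10711 of those with a symbol matched a RefSeq gene. A gene's value was the mean of its probe sets with exactly 1 symbol, which gave 8793 genes and 4707 unnamed probe sets, 13500 features in all. The 9 skin arrays were divided at a marker level of 3, a rule that uses measured values, so the sets were compared by differences in means and by overlap (called: at least 2-fold and no overlap), with no test. Mutant and WT skin were tested with limma 3.58.1 (lmFit and eBayes, Benjamini-Hochberg over 13500 features, R 4.3.3), and the marker level by label with exact permutation tests in scipy 1.17.1. Both procedures were tested on simulated data. Title numbers 1 to 3 occur in mutant and WT skin, but nothing in the labels says that they pair fish.

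The members, the marker genes and the 22 gene lists were chosen with earlier results of these data known. Named were the 3 markers, the 15 genes with the largest difference each way, up to 4 genes per list by size of the difference, and up to 5 genes each way by label with the set as a term; other names were chosen after their values were seen and are given as such. The alternatives were other scalings, other probe set rules, a 4-fold limit, single arrays or labels left out and, chosen after seeing the data, spike-in scaling and the loss of 2 or 3 arrays together. RefSeq symbols were used for names only.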

Additional observations from a re-analysis of the deposited data

Results flagged for a closer look

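A sample far from the rest of its group appeared in 9 of 69 comparisons. These were made within mutant skin, within the 6 skin arrays with ovary transcripts or within melanoma, and all 9 were in melanoma. Chance gives about 1 in 20 for a single comparison. In 8 of the 9 the array was melanoma 6, and the maternal and germ granule lists hold the markers. The comparisons are therefore not independent, and their count cannot be set against that share. Its ovary marker level was 8.35, against -1.23 to -0.63 in melanoma 1 to 5. Its list levels were 3.06 for the egg coat (others -5.11 to -4.61), 2.82 for maternal oocyte genes (others -4.31 to -4.14), 2.26 for germ granule genes (others -2.72 to -2.30) and 0.73 for meiosis genes (others -1.07 to -0.61). The yolk precursor and liver list stood at 2.94 (others -1.76 to -1.36), skeletal muscle at -1.62 (others -6.39 to -4.78) and pigment cell genes at 1.46 (others 3.38 to 3.82). The ninth was melanoma 2, whose neural and glial list stood at 0.30 (others -0.41 to -0.17). No such array was found in the 2 groups of skin arrays, but the group with ovary transcripts was itself formed by a cut on the marker level. The 3 WT skin arrays are too few for this comparison.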

How the results depend on the processing

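The counts between the sets, 509 genes higher and 163 lower, depended on how many arrays had to stay apart. Leaving out 1 array at a time gave 484 to 812 higher and 144 to 474 lower genes; the count of lower genes moved by over 1.5 times without mutant skin 3 (354), 4 (474) or 5 (396) or WT skin 2 (387) or 3 (372), and that of higher genes without mutant skin 4 (812). Mutant skin alone gave 559 lower genes, and WT skin alone 1266 higher and 1186 lower. Chosen after seeing the data, leaving out mutant skin 5 and WT skin 3 gave 961 and 926, and leaving out mutant skin 1 and 4 and WT skin 2 gave 2013 and 1831; fewer arrays make overlap rarer by construction. Lower genes numbered 80 with median centring, 19 at 4-fold, 349 over every probe set and 0 with spike-in scaling. Spike-in scaling also turned the medians of epidermis (0.25), mucous cells and ionocytes (0.21), dermis, scale and matrix (0.0803), leukocytes (0.28) and endothelium (0.32) and the differences of mep1a.1 (0.168), psmb1 (0.176) and psmd3 (0.26) above 0. A division by the egg coat list gave the same 2 sets.

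The marker level of mutant minus WT skin turned from -0.13 to 0.0196 with median centring and ran from -2.17 to 1.51 with 1 array left out, above 0 without mutant skin 3 (0.93) or 5 (0.63) or WT skin 1 (1.51) or 2 (0.28). Melanoma minus mutant skin ran from -5.76 to -3.43, and passed the adjusted threshold only without melanoma 6 (-5.76), the array that stood apart by this same level.

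The 11 features called by label became 3 within the arrays with ovary transcripts, 1 within those without, 19 with median centring, 26 with all 15 arrays in the fit, 5 to 14 with 1 array left out (fewest without mutant skin 3 or 5 or WT skin 3), and 1665 with array quality weights, whose estimate did not converge. With the title number as a replicate block 0 passed in limma, with 630 at an unadjusted p below 0.05; deviations of same-numbered mutant and WT skin correlated at -0.00154, -0.412 and 0.779, so the numbers were not taken to pair the pieces. The causes of these shifts were not tested.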

Other observations

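Some further germ line and ovary genes outside the rule for named genes, chosen after their values were seen, separated the skin pieces in the same way. Others chosen like this overlapped. The germ granule gene piwil2 ran from -0.57 to 4.16 with and from -0.89 to 0.99 without, and pld6 from 0.14 to 4.66 and from -0.75 to 1.27. The zinc finger factor gene gtf3ab, related to the factor that transcribes and stores 5S RNA in oocytes, stood at 3.64, 6.89 and 8.51 (lowest, median and highest, log2) in the 6 arrays with ovary transcripts and at -0.67, -0.31 and -0.07 in the 3 without. The gene 42sp43, whose frog counterpart belongs to a storage particle of young oocytes, stood at 0.70, 4.68 and 7.43 with and at -0.49, -0.19 and -0.01 without. The steroid side-chain cleavage gene cyp11a1.1 stood at 2.00, 4.65 and 6.66 with and at -0.45, -0.11 and 0.04 without, unlike hsd3b2 and cyp17a1, which overlapped. In melanoma 6 these genes stood at 7.74, 7.02 and 6.20.

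The oocyte signalling genes mos, gdf3 and bmp15 did not overlap between the sets. They too were chosen after their values were seen, so they are no independent support for the division. The meiotic kinase gene mos stood at 2.86, 5.74 and 7.16 with and at -1.65, -0.74 and -0.25 without. The growth factor genes gdf3 and bmp15 stood at 3.34, 7.19 and 8.70 and at 1.68, 4.80 and 6.00 with, and at no more than 1.44 and 0.34 without. Of the genes named for the gonad in general, star, which brings cholesterol into steroid-making cells, was high in mutant skin 6 (3.55) and mutant skin 3 (3.04) and at -1.33 to -0.09 in the other 7 skin arrays. The gonadal growth factor gene gsdf was highest in mutant skin 3, at 1.63, and at most 0.92 in the others.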
